A study of Homo sapiens with 18 samples.

Results

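HOX genes encode homeodomain transcription factors and lie in 4 clusters, HOXA on chromosome 7, HOXB on chromosome 17, HOXC on chromosome 12 and HOXD on chromosome 2. The HOX genes described here are those whose probe symbol is HOXA, HOXB, HOXC or HOXD followed only by a number. They were 23 genes with 1 probe each, out of 21448 probes on the array. RefSeq lists 39 such genes, and the 16 without a named probe were not analysed here. The measured genes were HOXA2, 8 HOXB genes (HOXB1, HOXB2, HOXB5, HOXB6, HOXB7, HOXB8, HOXB9 and HOXB13), 6 HOXC genes (HOXC8 to HOXC13) and 8 HOXD genes (HOXD3, HOXD4 and HOXD8 to HOXD13). For 10 of the 23, the mean signal over all arrays was below the 25 percentile of all probe means. They are called dim here.

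The study silenced the kinase ERK5, encoded by MAPK7, in the human neuroblastoma cell lines SK-N-BE(2) and CHLA-90, and asked how the transcriptome changed. Each line was transduced with a lentivirus carrying the control hairpin shNSC or one of 2 hairpins against ERK5, shERK5-4 and shERK5-5. The hairpins were in the pLKO vector, the virus was produced in HEK-293T cells, and 250000 cells were seeded per well. Total RNA was taken after 72 hours from biological triplicates, giving 6 groups of 3 arrays. No uninfected group was analysed here, so all groups share the transduction. The values are log2 signals.

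During development HOX genes are switched on in an order along the body axis that follows their order in the cluster, and together they give cells a positional identity. Genes at the same place in different clusters are paralogs, carry the same number and bind similar DNA. HOX proteins bind DNA with partners of the TALE homeodomain class, PBX and MEIS. Trithorax-type methyltransferases keep HOX clusters active and Polycomb complexes keep them silent, and retinoic acid is a classic inducer. The neural crest, from which neuroblastoma arises, uses HOX genes to mark its axial level, and differentiated cells usually keep the pattern they were set with.

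The target of the hairpins was lower with both. In SK-N-BE(2) the MAPK7 signals were 6.99, 6.46 and 6.90 with shNSC, 5.97, 6.28 and 6.02 with shERK5-4, and 6.14, 6.02 and 6.28 with shERK5-5. In CHLA-90 they were 8.37, 8.24 and 8.64 with shNSC, 7.15, 7.57 and 7.33 with shERK5-4, and 7.24, 7.83 and 7.22 with shERK5-5. Every array with a hairpin against ERK5 lay below every control array of its line. For shERK5-4 and shERK5-5 the change was -0.69 and -0.64 in SK-N-BE(2), against -1.07 and -0.99 in CHLA-90 (limma, adjusted p = 0.0103, 0.0319, 0.000329 and 0.00139). Array medians ran from 5.63 to 5.69 in SK-N-BE(2) and from 6.35 to 6.43 in CHLA-90, so levels in the 2 lines are not on one settled scale. Arrays of the same group correlated at r = 0.988 to 0.997 across probes. The adrenergic neuroblastoma markers measured 9 of 11 listed genes and had mean log2 signals of 10.7 to 10.9 in control SK-N-BE(2) and 12.6 to 12.8 in control CHLA-90. The Schwann cell markers SOX10 and S100B were at 4.56 to 5.23 on the control arrays, as the mean of both, and 4 blood and immune markers were at 4.48 to 5.18. The mesenchymal neuroblastoma markers, 7 of 7 measured, were at 8.55 to 8.81 in control SK-N-BE(2) and 8.34 to 8.47 in control CHLA-90. The fibroblast markers measured 5 of 6 listed genes and were at 10.7 to 10.8 in control SK-N-BE(2) and at 8.67 to 8.70 in control CHLA-90.

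The largest difference among the HOX genes was between the lines, in neighbouring HOXC genes. HOXC8, HOXC9 and HOXC10 were high in SK-N-BE(2) and low in CHLA-90. HOXC8, which acts in patterning of the thoracic body axis, had signals of 11.55, 11.15 and 11.23 on the SK-N-BE(2) control arrays and of 3.04, 2.93 and 3.27 on the CHLA-90 control arrays. Over all 9 arrays of a line, whatever the hairpin, it ran from 10.99 to 11.60 (median 11.23) in SK-N-BE(2) and from 2.93 to 3.27 (median 3.10) in CHLA-90. The values of the lines lay far apart and those within a line close together. With shNSC the difference was -8.23 ± 0.17 (SE, n = 3 per line), CHLA-90 minus SK-N-BE(2) (limma, adjusted p = 2.85e-20). The signal in CHLA-90 lay below the 25 percentile of those arrays, which was 4.06 to 4.29. No detection calls were used, so whether HOXC8 was above background there is unknown, and no fold is given.

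HOXC10, a gene of lumbar and hindlimb patterning, gave 8.08, 7.62 and 8.38 in control SK-N-BE(2) and 3.41, 3.73 and 3.39 in control CHLA-90. The 9 arrays of SK-N-BE(2) spanned 7.62 to 8.38 and those of CHLA-90 3.39 to 4.05, with no overlap. The difference was -4.52 ± 0.19 (limma, adjusted p = 7.39e-15). Its CHLA-90 arrays also lay below their 25 percentile, so no fold is given for it either. HOXC9 gave 7.88, 8.15 and 8.16 in control SK-N-BE(2) and 4.82, 4.57 and 4.50 in control CHLA-90. Its 9 arrays spanned 7.40 to 8.60 and 3.75 to 5.59, again apart, and the CHLA-90 arrays with shERK5-5 spread most, at 5.59, 4.89 and 3.75. The difference was -3.43 ± 0.31 as deposited, a ratio of 10.8 (limma, adjusted p = 2.87e-09). With each array centred on its own median it was -4.15, and with quantile normalization -4.05, so the ratio depends on the scaling.

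In RefSeq, HOXC10, HOXC9 and HOXC8 follow one another as HOX genes on chromosome 12, with the microRNA gene MIR196A2 and the non-coding genes HOXC-AS2 and HOXC-AS1 between HOXC10 and HOXC9. The next HOX gene beyond HOXC10 is HOXC11, whose difference was smaller. HOXC11 gave 4.19, 3.90 and 3.79 in control SK-N-BE(2) and 3.24, 3.47 and 2.66 in control CHLA-90. The control arrays of the lines did not overlap, and the difference was -0.84 ± 0.19 (limma, adjusted p = 0.000742). HOXC11 is a dim probe and overlaps the antisense gene HOTAIR, and no source used here gives the strand that the probe reads. The last genes of the cluster on that side gave differences of 0.03 (HOXC12) and 0.27 (HOXC13), neither past the threshold (limma, adjusted p = 0.907 and 0.181). With centred arrays both were lower in CHLA-90, by -0.69 and -0.45 (adjusted p = 0.00322 and 0.0275). With quantile normalization they gave -0.27 and -0.07 and did not pass (limma, adjusted p = 0.257 and 0.773). Both are dim probes, and centring moved the median of all probes down as well, from 0.45 to -0.27. Their calls thus depend on the scaling and do not show where along the cluster the difference ends. On the other side lie HOXC4, HOXC5 and HOXC6, which were not analysed here. The direction of the paralogs of HOXC8, HOXC9 and HOXC10 depends on how the lines are scaled, and HOXB8, HOXB9 and HOXD10 among them are dim probes. As deposited, HOXB8 differed by 0.23, HOXB9 by 0.06, HOXD9 by 0.28 and HOXD10 by 0.16, none past the threshold, and HOXD8 by 0.96. With each array centred on its own median, HOXB8 (-0.48), HOXB9 (-0.66), HOXD9 (-0.44) and HOXD10 (-0.56) were lower in CHLA-90 (limma, adjusted p = 0.0413, 0.00328, 0.0133 and 0.0306), and HOXD8 gave 0.24. With quantile normalization HOXB8 (-0.07), HOXB9 (-0.35), HOXD9 (-0.25) and HOXD10 (-0.16) did not pass (limma, adjusted p = 0.8, 0.107, 0.169 and 0.56).

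**Figure D1:**
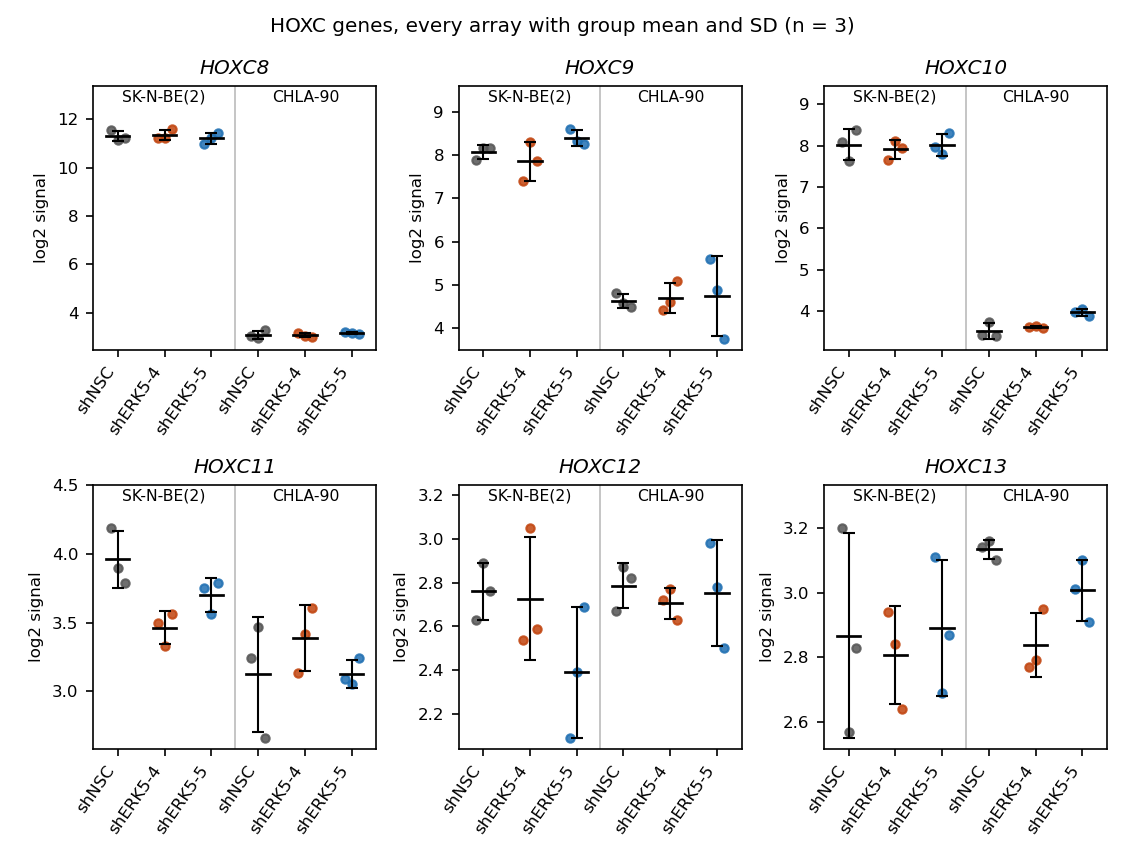
Log2 signal (vertical axis, a separate scale in each panel) of the 6 measured HOXC genes on all 18 arrays, grouped by line and hairpin on the horizontal axis. Points are arrays and bars show the group mean and SD (n = 3). HOXC8, HOXC9 and HOXC10 separate the lines in all hairpin groups, HOXC8 by 8.23 with shNSC, while HOXC12 and HOXC13 overlap between the lines.

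Of the 5 measured fibroblast markers, 3 were lower in CHLA-90 like these HOXC genes (COL1A1, PDGFRB and LUM) and 1 was higher (DCN), with a list median of -3.12, and their part in the HOXC result was not tested. In all, 8 of the 23 HOX genes differed between the lines with shNSC (limma, adjusted p under 0.05), beside 60.0% of all probes. Of these, 4 were lower in CHLA-90 (HOXC8, HOXC9, HOXC10 and HOXC11), beside 11.6% of all probes, and 4 were higher, beside 48.4%. The higher ones were HOXB1 (1.49 ± 0.19, adjusted p = 6.61e-07), HOXB5 (1.43 ± 0.24, 2.44e-05), HOXD8 (0.96 ± 0.35, 0.0216) and HOXB6 (0.46 ± 0.17, 0.0257). The median difference of the HOX genes was 0.17 and that of all probes 0.45. The control arrays of the lines did not overlap for 10 of the 23 HOX genes, beside 67.5% of all probes. Over all 9 arrays per line, 5 genes did not overlap, namely HOXB1, HOXB6, HOXC8, HOXC9 and HOXC10.

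How many HOX genes count as different depends on how the lines are put on one scale. When each array was centred on its own median, the median of all probes moved to -0.27 and the HOX counts to 2 higher and 16 lower, beside 19.2% and 37.1% of all probes. With quantile normalization of the 18 arrays together the median of all probes was -0.03 and the counts were 2 higher and 8 lower, beside 23.6% and 24.6%. The 4 HOXC genes were lower in CHLA-90 under all 3 scalings, HOXC8 by -8.95 and HOXC11 by -1.56 with centred arrays. HOXD3, HOXD11, HOXD12 and HOXD13 passed as lower with centred arrays, at -0.55, -0.86, -0.635 and -0.935. They also passed as lower with quantile normalization, at -0.54, -0.74, -0.57 and -0.58, but not as deposited. HOXB1 and HOXB5 were higher under all 3, at 0.78 and 0.71 with centred arrays (limma, adjusted p = 0.00191 and 0.0149). HOXD8 was not past the threshold with centred arrays (0.24, adjusted p = 0.578) or quantile normalization (0.27, 0.566). HOXB6 turned to -0.26 with centred arrays and -0.15 with quantile normalization (adjusted p = 0.192 and 0.481). As deposited, the HOXB6 call was also lost without SK-N-BE(2) shNSC replicate 2 or 3 or CHLA-90 shNSC replicate 2 or 3 (adjusted p = 0.0614, 0.081, 0.0594 and 0.057). The HOXD8 call was lost without SK-N-BE(2) shNSC replicate 1 or 2 or CHLA-90 shNSC replicate 2 (0.051, 0.0965 and 0.0903).

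**Figure D2:**
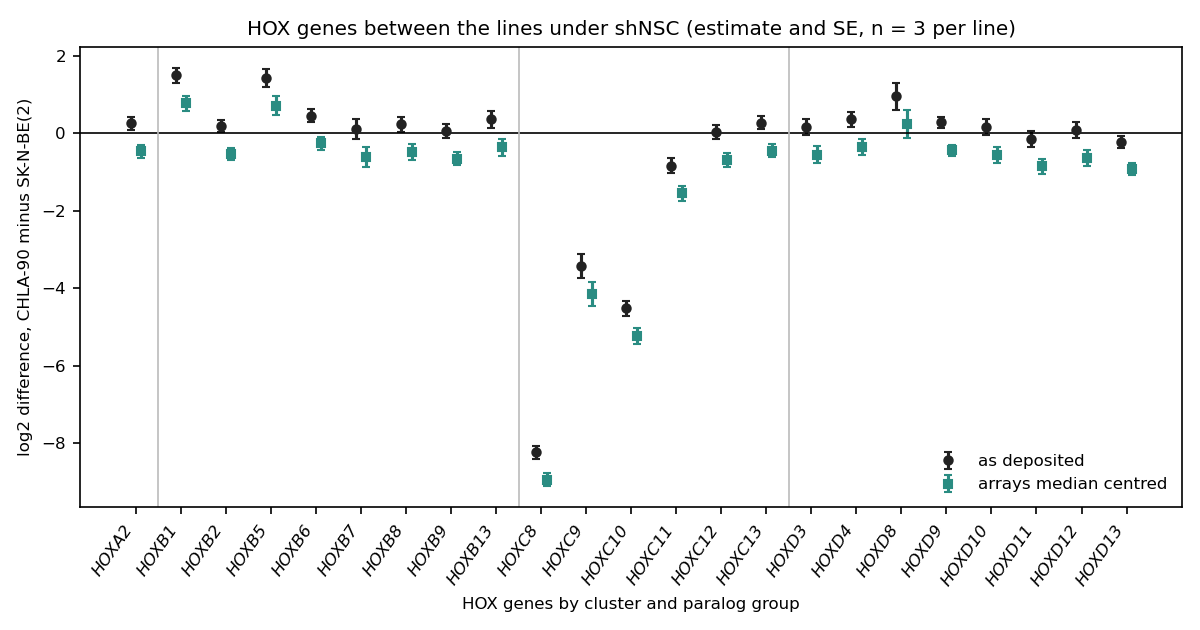
Difference of the 23 HOX genes between the lines with shNSC (vertical axis, log2, CHLA-90 minus SK-N-BE(2)), by cluster and paralog number on the horizontal axis. Circles are values as deposited and squares after centring each array on its median, with bars for the SE (n = 3 per line). HOXC8 at -8.23, HOXC10 at -4.52 and HOXC9 at -3.43 stand far below the other genes with either scaling, and centring moves all genes down.

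The hairpins against ERK5 moved few HOX genes. In SK-N-BE(2), shERK5-4 raised 2 of 23, HOXD4 and HOXB5, and lowered 0 (limma, adjusted p under 0.05), beside 23.9% of all probes called. In CHLA-90 it raised 1, HOXD4, beside 18.3% of all probes. With shERK5-5, 0 of 23 passed in SK-N-BE(2) (limma, 1 at an unadjusted p under 0.05), beside 12.8% of all probes. With shERK5-5 in CHLA-90, 0 of 23 passed as well (limma, 1 at an unadjusted p under 0.05), beside 12.7%. Both hairpin comparisons of a line use the same 3 control arrays. No HOX gene passed alike with both hairpins, 0 of 23 in either line, beside 5.21% of all probes in SK-N-BE(2) and 3.51% in CHLA-90. Over the 4 comparisons, 2 of 23 HOX genes passed at least once and 21 never, beside 39.7% of all probes passing at least once.

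The size of the changes was small as well. The median change of the HOX genes was -0.01 and 0.00 in SK-N-BE(2), against -0.02 and 0.07 in CHLA-90 for shERK5-4 and shERK5-5. The same medians over all probes were 0.01, 0.00, 0.01 and 0.05. Regardless of sign, the median HOX change was 0.12 and 0.15 in SK-N-BE(2), against 0.17 and 0.14 in CHLA-90, beside 0.26, 0.20, 0.24 and 0.24 for all probes. The median SE was 0.19 for HOX genes and 0.20 for all probes. The values of all probes were not matched to the HOX genes by signal, and 10 of the 23 HOX genes are dim. The part of low signal in the smaller changes and the shares called was not tested. HOX changes ran from -0.50 to 1.20 with shERK5-4 and from -0.37 to 0.47 with shERK5-5 in SK-N-BE(2), and from -0.36 to 0.72 and from -0.62 to 0.46 in CHLA-90. The arrays of hairpin and control did not overlap for 4 and 5 HOX genes in SK-N-BE(2), beside 32.7% and 30.0% of all probes, and for 4 and 3 in CHLA-90, beside 37.5% and 26.8%. For the genes that did not pass, a change was not shown to be absent. For example, the 95% confidence interval of HOXD8 with shERK5-5 in CHLA-90 reached from -1.34 to 0.10.

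**Figure D3:**
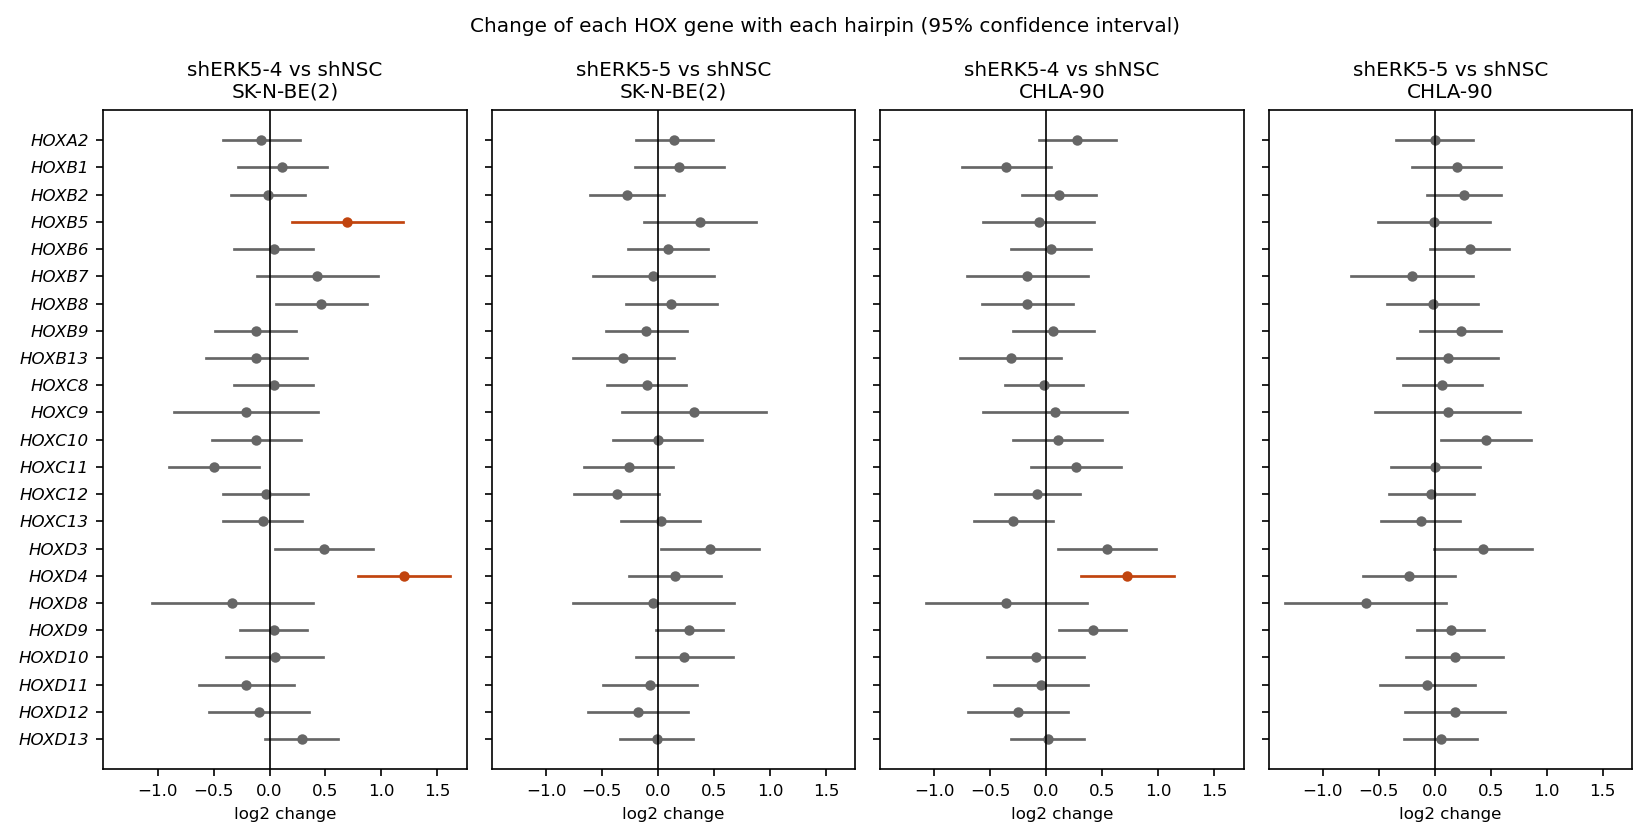
Change of each of the 23 HOX genes (vertical axis) with each hairpin against shNSC (horizontal axis, log2 change), in 4 panels by hairpin and line. Points are estimates from 3 arrays per group, lines their 95% confidence intervals, and orange marks an adjusted p under 0.05. HOXD4 stands out with shERK5-4 in both lines, at 1.20 and 0.72, and HOXB5 passes in SK-N-BE(2) with 0.70, while no gene is orange with shERK5-5.

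HOXD4, a gene of the hindbrain and neck level, was the HOX gene that rose with shERK5-4 in both lines, where 5.43% of all probes were called higher. In SK-N-BE(2) its signals were 5.02, 5.03 and 4.62 with shNSC, 6.19, 5.76 and 6.32 with shERK5-4, and 5.13, 5.33 and 4.67 with shERK5-5. The shERK5-4 arrays lay above all others of the line, while shERK5-5 and shNSC overlapped. The rise was 1.20 ± 0.20 (SE, n = 3 per group), 2.30-fold, with a 95% confidence interval of 0.79 to 1.61 (limma, adjusted p = 7.24e-05). With shERK5-5 the difference was 0.15 (limma, adjusted p = 0.751). In CHLA-90 the signals were 5.40, 5.01 and 5.34 with shNSC, 5.99, 6.07 and 5.86 with shERK5-4, and 4.98, 4.82 and 5.26 with shERK5-5. Again the shERK5-4 arrays were the highest and the other groups overlapped. The rise was 0.72 ± 0.20, 1.65-fold, with an interval of 0.31 to 1.14 (limma, adjusted p = 0.0124). It did not pass without CHLA-90 shNSC replicate 2 (0.60, adjusted p = 0.0758) or without CHLA-90 shERK5-4 replicate 2 (0.68, adjusted p = 0.0552). With shERK5-5 the difference was -0.23 (limma, adjusted p = 0.514).

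Tested directly, HOXD4 was higher with shERK5-4 than with shERK5-5, by 1.05 ± 0.20 in SK-N-BE(2) and by 0.95 ± 0.20 in CHLA-90 (limma, adjusted p = 0.000296 and 0.000926). MAPK7 differed between the hairpins by -0.06 and -0.08 (limma, adjusted p = 0.897 and 0.8). Subtracting the shERK5-4 effect on HOXD4 seen in SK-N-BE(2) from that of CHLA-90 left -0.48 ± 0.28, which did not pass (limma, adjusted p = 0.382). Adrenergic markers moved in the same arrays. With shERK5-4, 6 of 9 fell and 0 rose in SK-N-BE(2), beside 11.7% of all probes lower and 12.2% higher. In CHLA-90, 7 of 9 fell and 0 rose, beside 8.25% and 10.0%. With shERK5-5, 1 rose and 0 fell in SK-N-BE(2), beside 6.76% higher and 6.07% lower. In CHLA-90, 0 of these markers rose and 3 fell with shERK5-5, beside 5.85% and 6.84%. Their mean log2 signal was 10.7 to 10.9 with shNSC, 9.46 to 9.94 with shERK5-4 and 10.9 to 11.2 with shERK5-5 in SK-N-BE(2). In CHLA-90 it was 12.6 to 12.8, 10.2 to 10.6 and 11.9 to 12.4. Fibroblast markers moved as well. Against shNSC in SK-N-BE(2), 1 of 5 rose and 3 fell with shERK5-4, and 3 rose and 0 fell with shERK5-5. In CHLA-90, 0 rose and 2 fell with shERK5-4, and 1 rose and 0 fell with shERK5-5. These counts stand beside the same shares of all probes. Between the hairpins, where HOXD4 differed, the matrix genes LUM and DCN and the receptor gene PDGFRB were lower with shERK5-4 in both lines. Of the 5, 0 were higher, and the list median was -1.91 in SK-N-BE(2) and -0.63 in CHLA-90. Between the hairpins 24.5% of all probes were called in SK-N-BE(2) and 27.2% in CHLA-90. The mean log2 signal of the fibroblast markers was 10.7 to 10.8 with shNSC, 9.92 to 10.1 with shERK5-4 and 11.6 to 11.9 with shERK5-5 in SK-N-BE(2). In CHLA-90 it was 8.67 to 8.70, 8.10 to 8.34 and 8.81 to 9.12. The part of these shifts in the HOXD4 result was not tested. In bulk RNA, a change in the share of cells of a type and a change in RNA per cell cannot be told apart.

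The neighbouring HOXD3, also a gene of the hindbrain and neck level, had similar changes in all 4 comparisons without passing in any. In SK-N-BE(2) its signals were 6.33, 6.57 and 6.42 with shNSC, 6.65, 6.77 and 7.36 with shERK5-4, and 7.16, 6.46 and 7.10 with shERK5-5. In CHLA-90 they were 6.60, 6.64 and 6.58 with shNSC, 7.00, 7.42 and 7.02 with shERK5-4, and 6.74, 7.26 and 7.12 with shERK5-5. All hairpin arrays but SK-N-BE(2) shERK5-5 replicate 2 lay above the control arrays of their line. The changes were 0.49 and 0.47 in SK-N-BE(2), against 0.54 and 0.43 in CHLA-90, each ± 0.21 (limma, adjusted p = 0.107, 0.185, 0.0833 and 0.198). In SK-N-BE(2) the shERK5-5 change was 0.69 without that replicate (adjusted p = 0.0465), and in CHLA-90 the shERK5-4 change was 0.57 with array weights (adjusted p = 0.0216). A positive change in all 4 comparisons was seen for 3 of 23 HOX genes, HOXD3, HOXD9 and HOXB6, beside 12.7% of all probes.

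HOXD4 and HOXD3 overlap in RefSeq, with HOXD3 having the longer span, and the microRNA gene MIR10B lies just before HOXD4. The promoter windows of both are shown because HOXD4 is the HOX gene that rose in both lines and HOXD3 its overlapping neighbour. The windows, from RefSeq on GRCh38.p14, hold 250 bases before and 50 after the annotated start, 5′ to 3′ on the plus strand. They lie at chr2:176151300-176151599 for HOXD4 and chr2:176157057-176157356 for HOXD3. Capitals mark the letters of the motifs searched.
HOXD4: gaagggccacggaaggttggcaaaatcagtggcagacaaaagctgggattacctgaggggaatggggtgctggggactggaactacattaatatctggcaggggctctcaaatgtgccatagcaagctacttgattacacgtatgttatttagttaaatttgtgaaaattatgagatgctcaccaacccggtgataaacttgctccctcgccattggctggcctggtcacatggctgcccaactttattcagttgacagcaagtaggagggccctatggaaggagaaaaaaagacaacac
HOXD3: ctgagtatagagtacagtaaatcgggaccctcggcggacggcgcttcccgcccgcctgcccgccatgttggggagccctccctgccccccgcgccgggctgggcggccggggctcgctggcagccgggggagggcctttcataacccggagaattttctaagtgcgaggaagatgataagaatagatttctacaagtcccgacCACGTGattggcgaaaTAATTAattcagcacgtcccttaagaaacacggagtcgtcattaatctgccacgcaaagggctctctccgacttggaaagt
Both strands were searched for the joint HOX and PBX site TGATNNAT, the homeodomain core TAATTA, the nuclear receptor half-site AGGTCA, the E-box CACGTG and the MEF2 site. MEF2 factors are known substrates of ERK5. None of these letters were in the HOXD4 window. The HOXD3 window held CACGTG at -47 to -42 and TAATTA at -31 to -26 from the start. Of all 35116 windows of this length, 7.26% held CACGTG, 4.84% TAATTA, 7.40% TGATNNAT, 13.8% AGGTCA and 0.572% a MEF2 site. The HOXD4 window had 4 CpG dinucleotides and 47.3% GC, and the HOXD3 window 25 and 58.0%, beside medians of 14 and 58.7% over all windows. A window was found for 9 of the 23 HOX genes, and across them 3 held TGATNNAT, 2 TAATTA, 4 CACGTG, 0 AGGTCA and 0 a MEF2 site. No matches of different motifs overlapped in these windows.

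HOXB5, a gene of the cervical level that also acts in neural crest and enteric neuron development, passed in SK-N-BE(2) with shERK5-4. Its signals there were 3.60, 3.44 and 3.08 with shNSC, 3.90, 4.15 and 4.16 with shERK5-4, and 3.76, 3.84 and 3.65 with shERK5-5. The control arrays were the lowest, the shERK5-4 arrays the highest, and the groups did not overlap. The change was 0.70 ± 0.24 with shERK5-4 (limma, adjusted p = 0.0374) and 0.38 with shERK5-5 (adjusted p = 0.408). The shERK5-4 call was lost without SK-N-BE(2) shNSC replicate 2 or 3 (adjusted p = 0.0678 and 0.172) and without shERK5-4 replicate 2 or 3 (0.0963 and 0.0985), and with array weights (0.67, adjusted p = 0.0893). In CHLA-90 HOXB5 gave 4.55, 5.27 and 4.59 with shNSC, 4.12, 4.92 and 5.16 with shERK5-4, and 5.14, 4.61 and 4.64 with shERK5-5, all overlapping. Its changes there were -0.07 and -0.01, and the difference between lines in the shERK5-4 effect, -0.77 ± 0.34, did not pass (limma, adjusted p = 0.205). HOXB5 overlaps the antisense gene HOXB-AS3 in RefSeq, whose own probe changed by 0.09 in SK-N-BE(2) with shERK5-4 (adjusted p = 0.776). The HOXB-AS3 signals of those 2 groups, 3.15 to 3.46, lay below the 25 percentile of the SK-N-BE(2) arrays, 3.54 to 3.67. A change could therefore have been missed. The HOXB5 control signals in SK-N-BE(2), 3.08 to 3.60, were near that level too.

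HOXB1, the most anterior HOXB gene and a determinant of hindbrain segment identity, differed between the hairpins in CHLA-90. It gave 4.99, 5.43 and 5.32 with shNSC, 4.73, 4.84 and 5.09 with shERK5-4, and 5.24, 5.19 and 5.89 with shERK5-5. The shERK5-4 arrays lay below the shERK5-5 arrays, and both overlapped the controls. The difference, shERK5-4 minus shERK5-5, was -0.55 ± 0.19 (limma, adjusted p = 0.0356). It did not pass without CHLA-90 shERK5-4 replicate 1 or 2 (adjusted p = 0.124 and 0.0976) or without CHLA-90 shERK5-5 replicate 3 (-0.33, adjusted p = 0.211), nor with quantile normalization (-0.42, adjusted p = 0.129) or the arrays of CHLA-90 alone (0.0663). In SK-N-BE(2) the signals were 3.90, 3.74 and 3.62 with shNSC, 4.04, 3.94 and 3.62 with shERK5-4, and 4.03, 3.93 and 3.87 with shERK5-5, all overlapping and all below those of CHLA-90. With HOXD4, HOXB1 made 2 of 23 HOX genes that differed between the hairpins in CHLA-90, beside 27.2% of all probes. In SK-N-BE(2) HOXD4 was the 1 of 23, beside 24.5%. The window of HOXB1, at chr17:48530962-48531261 on the minus strand, is shown because it held the joint HOX and PBX site, in capitals, at -125 to -118.
HOXB1: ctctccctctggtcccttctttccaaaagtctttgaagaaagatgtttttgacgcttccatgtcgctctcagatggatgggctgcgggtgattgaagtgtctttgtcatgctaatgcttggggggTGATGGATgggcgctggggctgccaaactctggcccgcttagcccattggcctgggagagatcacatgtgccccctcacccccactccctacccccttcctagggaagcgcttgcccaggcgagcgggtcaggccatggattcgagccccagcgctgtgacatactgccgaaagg
It had 11 CpG dinucleotides and 58.0% GC.

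**Figure D4:**
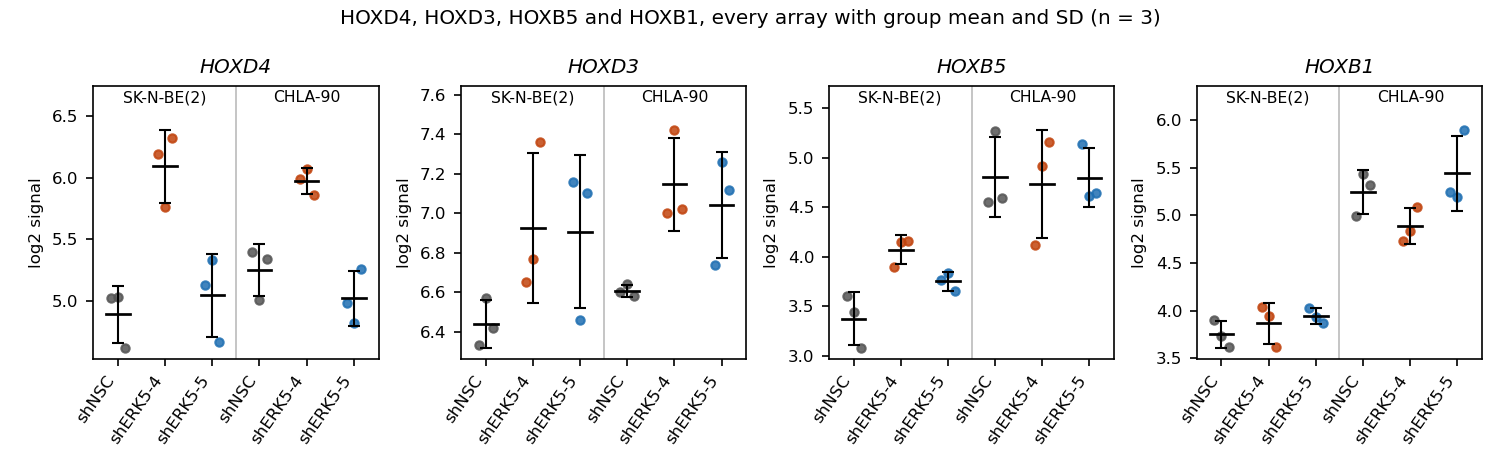
Log2 signal (vertical axis, a separate scale in each panel) of HOXD4, HOXD3, HOXB5 and HOXB1 on all 18 arrays, by line and hairpin on the horizontal axis. Points are arrays and bars show the group mean and SD (n = 3). The HOXD4 arrays with shERK5-4, from 5.76 to 6.32 in SK-N-BE(2) and from 5.86 to 6.07 in CHLA-90, lie above all arrays of the other groups.

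The HOXC genes that set the lines apart showed no call with either hairpin. HOXC8 changed by 0.04 and -0.10 in SK-N-BE(2) with shERK5-4 and shERK5-5, with 95% confidence intervals of -0.31 to 0.39 and -0.45 to 0.25, and by -0.02 and 0.07 in CHLA-90. HOXC9 changes were -0.21 and 0.32 in SK-N-BE(2), against 0.07 and 0.11 in CHLA-90. HOXC10 changes were -0.12 and 0.00 in SK-N-BE(2), against 0.10 and 0.46 in CHLA-90. In CHLA-90 the HOXC8 and HOXC10 signals lay below the 25 percentile of those arrays, 4.06 to 4.29, so a fall there could have been missed. The HOXC10 arrays of CHLA-90 with shERK5-5, at 3.97, 4.05 and 3.88, all lay above the controls, and this was the 1 HOX gene at an unadjusted p under 0.05 there (limma, adjusted p = 0.129). HOXC11 in SK-N-BE(2) gave 3.50, 3.33 and 3.56 with shERK5-4, below all controls, a difference of -0.50 ± 0.19 that did not pass (limma, adjusted p = 0.0662).

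Among the remaining posterior genes, HOXD9 came nearest to the threshold. In CHLA-90 it gave 4.22, 4.18 and 4.02 with shNSC, 4.48, 4.59 and 4.59 with shERK5-4, and 4.22, 4.35 and 4.27 with shERK5-5. The shERK5-4 arrays were the highest, and the difference from the controls was 0.41 (limma, adjusted p = 0.0508). HOXB8 in SK-N-BE(2) gave 2.92, 2.57 and 2.63 with shNSC and 2.86, 3.57 and 3.08 with shERK5-4, overlapping, a difference of 0.46 (adjusted p = 0.0951). HOXD8 varied most within a group, at 6.16, 7.85 and 7.78 in CHLA-90 with shERK5-5 (SD 0.96), and HOXC9 nearly as much in that group (SD 0.93). By cluster, the median change with shERK5-4 and shERK5-5 in SK-N-BE(2) was 0.08 and 0.03 for the 8 HOXB genes, -0.09 and -0.05 for the 6 HOXC genes and 0.04 and 0.07 for the 8 HOXD genes. In CHLA-90 the medians were -0.12 and 0.16 (HOXB), 0.03 and 0.04 (HOXC) and -0.02 and 0.10 (HOXD). HOXA2 changed by -0.07, 0.15, 0.28 and 0.00. The difference between the lines in the effect of a hairpin passed for 0 of 23 HOX genes with shERK5-4 (limma, 3 at an unadjusted p under 0.05), beside 7.23% of all probes. It passed for 0 of 23 with shERK5-5 as well (limma, 1 at an unadjusted p under 0.05), beside 5.39%.

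Among the partners of HOX proteins, of 11 listed TALE genes 9 were measured. In SK-N-BE(2) with shERK5-4, 3 rose and 2 fell, beside 12.2% of all probes higher and 11.7% lower, and with shERK5-5 2 rose and 0 fell, beside 6.76% and 6.07%. In CHLA-90, 2 rose and 2 fell with shERK5-4, beside 10.0% and 8.25%, and 2 rose and 0 fell with shERK5-5, beside 5.85% and 6.84%. MEIS3 rose in all 4 comparisons. It gave 8.04, 8.40 and 8.71 with shNSC, 11.65, 12.49 and 12.14 with shERK5-4, and 9.46, 9.75 and 10.11 with shERK5-5 in SK-N-BE(2). In CHLA-90 it gave 9.92, 9.47 and 10.04 with shNSC, 11.69, 11.98 and 12.07 with shERK5-4, and 10.29, 10.81 and 10.89 with shERK5-5. The groups did not overlap within either line, with shERK5-4 highest and shNSC lowest. The rises were 3.71 and 1.39 in SK-N-BE(2), against 2.10 and 0.85 in CHLA-90, each ± 0.24 (limma, adjusted p = 9.51e-11, 0.000235, 8.13e-07 and 0.0202). The rise of 0.85 did not pass without CHLA-90 shNSC replicate 2 or shERK5-5 replicate 2 or 3 (adjusted p = 0.105, 0.0661 and 0.0711). TGIF2, a TALE repressor, rose in SK-N-BE(2) by 0.68 and 0.84 (adjusted p = 0.0143 and 0.00589). The first was lost without SK-N-BE(2) shNSC replicate 2 or shERK5-4 replicate 3 (adjusted p = 0.0944 and 0.0644) and the second without shERK5-5 replicate 3 (0.0571).

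The other MEIS genes, and PBX2, were chosen for naming after their values were seen. MEIS1 gave 11.31, 11.29 and 11.17 with shNSC, 10.22, 9.51 and 9.35 with shERK5-4, and 10.99, 10.65 and 11.12 with shERK5-5 in SK-N-BE(2). In CHLA-90 it gave 8.31, 8.17 and 7.90 with shNSC, 7.44, 7.63 and 7.10 with shERK5-4, and 8.93, 8.49 and 7.97 with shERK5-5. The shERK5-4 arrays were the lowest in both lines. MEIS1 fell with shERK5-4 by 1.56 in SK-N-BE(2) and by 0.74 in CHLA-90 (limma, adjusted p = 2.41e-05 and 0.0324), and its changes with shERK5-5 were -0.34 and 0.34 (0.468 and 0.404). The fall in CHLA-90 did not pass without shNSC replicate 1 or 2 or shERK5-4 replicate 1 or 3 of that line (adjusted p = 0.123, 0.0884, 0.0676 and 0.159). MEIS2 fell with shERK5-4 by 0.76 and 0.78 (adjusted p = 0.000516 and 0.00066). With shERK5-5 it changed by 0.09 in SK-N-BE(2) (adjusted p = 0.83) and rose by 0.65 in CHLA-90 (0.00621). PBX2 rose with shERK5-4 by 2.73 and 2.20 (adjusted p = 4.25e-08 and 1.63e-06) and gave 0.22 and -0.10 with shERK5-5 (0.718 and 0.855). Between the lines with shNSC, MEIS1 was lower in CHLA-90 by -3.13 as deposited and -3.85 with centred arrays (adjusted p = 1.52e-10 and 3.02e-12).

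**Figure D5:**
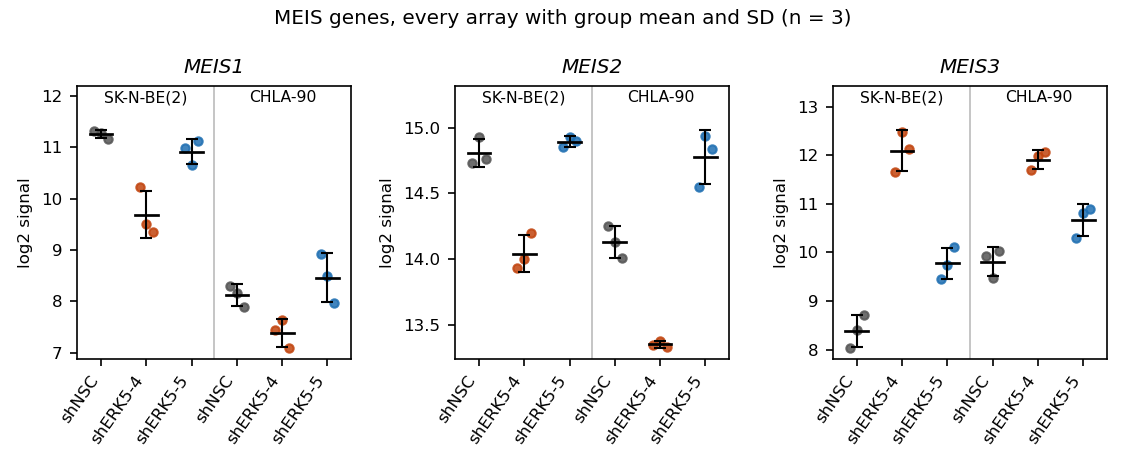
Log2 signal (vertical axis, a separate scale in each panel) of MEIS1, MEIS2 and MEIS3 on all 18 arrays, by line and hairpin on the horizontal axis. Points are arrays and bars show the group mean and SD (n = 3). With shERK5-4, MEIS3 is highest, at 11.65 to 12.49 in SK-N-BE(2) and 11.69 to 12.07 in CHLA-90, and MEIS1 and MEIS2 are lowest in both lines.

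Of 19 listed COMPASS and MLL activators, the trithorax-type machinery, 18 were measured. With shERK5-4 and shERK5-5, 6 and 3 rose and 3 and 3 fell in SK-N-BE(2), and 6 and 6 rose and 2 and 3 fell in CHLA-90. That is 50.0%, 33.3%, 44.4% and 50.0% of the 18 called, beside 23.9%, 12.8%, 18.3% and 12.7% of all probes. Their median changes were 0.39 and 0.14, and 0.32 and 0.37. DOT1L, a histone H3 methyltransferase of transcribed genes, rose by 1.65 and 1.17 in SK-N-BE(2) and by 2.27 and 1.34 in CHLA-90 (limma, adjusted p = 1.01e-06, 0.000185, 1.63e-08 and 6.35e-05). KMT2D, an enhancer methyltransferase, rose by 1.79 and 1.05, and by 1.96 and 1.42 (adjusted p = 1.82e-06, 0.00206, 8.61e-07 and 0.000137). Its relative KMT2C rose with both hairpins in CHLA-90, by 1.24 and 0.82 (3.7e-05 and 0.00507). In SK-N-BE(2) KMT2C gave 12.31, 12.44 and 12.40 with shNSC and 13.59, 14.10 and 13.59 with shERK5-4. Its change with shERK5-5 there was 0.29 (limma, adjusted p = 0.421). The 3 that fell with shERK5-5, named after their values were seen, were in both lines the core subunits WDR5 (-0.78 and -0.98), RBBP5 (-1.27 and -0.78) and DPY30 (-0.89 and -0.81). MLLT3, a reader that recruits DOT1L, rose with both in SK-N-BE(2), by 2.47 and 1.27 (3.54e-09 and 9.2e-05). In CHLA-90 it rose with shERK5-4, by 1.08, and gave 0.58 with shERK5-5 (limma, adjusted p = 0.00038 and 0.0611).

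Polycomb genes moved in both directions. Of 12 listed genes around PRC2, the complex that methylates histone H3 on silent HOX clusters, 11 were measured. In SK-N-BE(2) 2 and 1 rose and 3 and 2 fell with shERK5-4 and shERK5-5, and in CHLA-90 2 and 1 rose and 3 and 3 fell. In order of comparison, 45.5%, 27.3%, 45.5% and 36.4% of the 11 were called, beside the same 23.9%, 12.8%, 18.3% and 12.7% of all probes. The list includes KDM6B, a demethylase that removes the PRC2 mark, and it rose in all 4 comparisons, by 1.94 and 1.64 and by 1.24 and 1.50 (limma, adjusted p = 1.87e-06, 4.06e-05, 0.000646 and 0.000176). RBBP4, a histone-binding subunit, fell in SK-N-BE(2) by 0.94 and 1.35 (0.00435 and 0.000302). PHF19, an accessory subunit, fell in CHLA-90 by 2.00 and 0.71 (4.06e-07 and 0.0337). The second was lost without CHLA-90 shNSC replicate 1 or 3 or shERK5-5 replicate 1 or 2 (adjusted p = 0.123, 0.154, 0.104 and 0.0766). EZH2, the catalytic subunit, did not pass in any of the 4 (lowest adjusted p = 0.17). The subunit SUZ12 fell with shERK5-5 in both lines, by -1.11 in SK-N-BE(2) and -0.56 in CHLA-90 (limma, adjusted p = 2.38e-05 and 0.0198). With shERK5-4 in CHLA-90 it gave 0.30 (0.228). RBBP4 in CHLA-90 gave -0.59 with shERK5-4 (0.0891) and fell with shERK5-5, by -1.12 (0.00243). EZH2 and SUZ12 were named after their values were seen. Of 19 listed PRC1 genes, the complex that binds that mark, 14 were measured. In SK-N-BE(2) 7 and 2 rose and 3 and 3 fell, and in CHLA-90 5 and 1 rose and 1 and 0 fell. These were 71.4%, 35.7%, 42.9% and 7.14% of the 14, the last below the 12.7% of all probes. Their median change was 0.67 and 0.06 in SK-N-BE(2), against 0.57 and 0.07 in CHLA-90. CBX6, a chromodomain subunit, rose by 1.46 and 1.31 and by 1.63 and 1.14 (3.71e-06, 3.78e-05, 1.44e-06 and 3e-04). In SK-N-BE(2) PCGF5 rose by 1.11 and 1.03 (0.00273 and 0.00933) and PHC3 fell by 0.65 and 0.65 (0.00527 and 0.00955). With shERK5-5 both calls were lost without SK-N-BE(2) shERK5-5 replicate 1 (0.0534 and 0.0602). In CHLA-90 PCGF5 rose with shERK5-4, by 0.80, and gave -0.32 with shERK5-5 (limma, adjusted p = 0.0358 and 0.483). PHC3 gave 0.03 and 0.15 there (0.947 and 0.641).

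Of 14 listed upstream inducers, such as CDX genes and chromatin activators, 12 were measured. With shERK5-4 and shERK5-5, 2 and 1 rose and 1 and 1 fell in SK-N-BE(2), and 2 and 2 rose and 0 and 1 fell in CHLA-90. The shares called were 25%, 16.7%, 16.7% and 25%, beside 23.9%, 12.8%, 18.3% and 12.7% of all probes. KAT6A, an acetyltransferase known to activate HOX genes, rose with both hairpins in CHLA-90, by 0.53 and 0.59 (limma, adjusted p = 0.0467 and 0.0361). Both calls were lost with median-centred arrays (adjusted p = 0.0787 and 0.0516), and the first also with quantile normalization (0.0593). Leaving out single arrays ended the first call in 10 of 18 cases, with adjusted p up to 0.178, and the second in 5 of 18, up to 0.142. The lowest values came without CHLA-90 shNSC replicate 1, at 0.45 and 0.51. CDX1, CDX2 and CDX4 did not pass in any of the 4 comparisons. Of 19 listed retinoic acid genes 15 were measured. With shERK5-4 and shERK5-5, 2 and 1 rose and 3 and 1 fell in SK-N-BE(2), and 0 and 1 rose and 2 and 0 fell in CHLA-90. These were 33.3%, 13.3%, 13.3% and 6.67% of the 15, beside the same shares of all probes. None of them passed with the same sign with both hairpins of a line. Those that passed with shERK5-4 in SK-N-BE(2), named after their values were seen, were the receptors RARA (1.75) and RXRB (0.87), and CRABP2, RDH10 and NRIP1 (-3.04, -1.33 and -0.76), a carrier, a synthesis enzyme and a receptor corepressor.

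Of 24 listed non-coding genes of the HOX clusters only HOXA-AS3 and HOXB-AS3 were measured, and 0 passed in the 4 hairpin comparisons (limma, adjusted p from 0.0882 to 0.982 over both genes). HOXB-AS3 was lower with shERK5-4 than with shERK5-5 in CHLA-90, by -0.62 ± 0.17 (limma, adjusted p = 0.00814). Its CHLA-90 signals, 3.09 to 4.01, all lay below the 25 percentile of those arrays, 4.06 to 4.29. Of 10 listed genes next to the clusters, all measured, 2 rose with shERK5-4 in SK-N-BE(2), HIBADH (0.62, adjusted p = 0.044) beyond HOXA and CALCOCO1 (1.28) beyond HOXC. With shERK5-4 and shERK5-5, 20.0% and 10.0% of the 10 were called in SK-N-BE(2), below the 23.9% and 12.8% of all probes. In CHLA-90, 0.00% and 10.0% were called, below 18.3% and 12.7%. With shERK5-5, CALCOCO1 fell by 0.85 in SK-N-BE(2) and by 0.62 in CHLA-90 (adjusted p = 0.00539 and 0.0468). MTX2 and LNPK, on either side of HOXD, did not pass in any of the 4, with changes of 0.00, -0.08, 0.32 and 0.08 for MTX2 and of -0.27, -0.12, -0.38 and -0.01 for LNPK.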

How the data were processed

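The authors deposited normalized log2 signals, with 1 value for each probe on each array. Base 2 was inferred from the span of the values. The software was not given in the sources used here, and neither were the summarisation method and the genome build. Array medians differ between the lines and hardly within them, so comparisons between lines were repeated with median-centred and quantile-normalized arrays. Group means of all 18 arrays were fitted for all 21448 probes with limma 3.58.1 (lmFit and eBayes) in R 4.3.3, with Benjamini-Hochberg adjustment over all probes of a comparison and a threshold of 0.05, with no minimum fold. All limma tests are two-sided. Array signals have no depth, so the number of arrays limits the precision. Biological triplicates come from the series' design. How separate the cultures were is not stated, so p-values measure the spread between these samples.

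The HOX genes and the regulator lists were chosen with earlier results of these data known. Array values were planned for HOX genes past the threshold with a hairpin, HOXD4 and HOXB5. Those of other HOX genes were added outside that rule, with the values known. Regulators are named where they passed with the same sign with both hairpins of a line. At most 4 a list are named, by the p of the mean of both hairpins. Other named genes, such as HIBADH, CALCOCO1, MTX2 and LNPK, fall outside this rule and were named with the values known. Alternatives were array weights, eBayes with trend and robust settings, each line fitted alone, a minimum fold of 1.5 and a threshold of 0.01. Others were a filter on dim probes, the probes of a gene averaged, a replicate block and each array left out. Median-centred and quantile-normalized arrays were used for the hairpin comparisons too. The fit was tested on simulated data.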

Additional observations from a re-analysis of the deposited data

Results flagged for a closer look

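No HOX gene passed the threshold for a difference between the lines in its response to a hairpin, and 5 named regulators did. The test was the CHLA-90 effect less the SK-N-BE(2) effect (limma interaction, n = 3 arrays per group, adjusted over all probes). It passed for 7.23% of all probes with shERK5-4 and for 5.39% with shERK5-5. The regulators were named from calls within a line on these same arrays. For those named in a single line, that choice favours a difference between the lines, so the 5 are not a separate test. The rise of MEIS3 with shERK5-4 was smaller in CHLA-90, with a difference of -1.61 ± 0.34 (SE, adjusted p = 0.0039). The same held for MLLT3 with shERK5-4, at -1.39 ± 0.28 (adjusted p = 0.00322). With shERK5-5, TGIF2 differed by -1.17 ± 0.28 (adjusted p = 0.0184) and PCGF5 by -1.36 ± 0.37 (0.0347), both of which had risen in SK-N-BE(2) and had negative values short of the threshold in CHLA-90. PHC3, which fell with shERK5-5 in SK-N-BE(2), differed by 0.80 ± 0.24 (adjusted p = 0.0498).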

How the results depend on the processing

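Of the counts of called HOX genes, 2 with shERK5-4 in SK-N-BE(2) became 1 with array weights and 1 at a threshold of 0.01. With shERK5-4 in CHLA-90, 1 became 2 with dim probes left out, 3 with array weights and 0 at 0.01. Between the hairpins in CHLA-90, 2 became 1 with quantile normalization, 1 with the arrays of that line alone, 1 with a minimum fold of 1.5 and 1 at 0.01. Between the lines, 8 became 18 with median-centred arrays, and HOXB6 turned to -0.26 with that and to -0.15 with quantile normalization. Leaving out single arrays gave 1 to 3 (shERK5-4) and 0 to 1 (shERK5-5) in SK-N-BE(2), 0 to 2 and 0 to 0 in CHLA-90, 1 to 2 between the hairpins in either line, 0 to 1 and 0 to 0 for the difference between lines in the effect of shERK5-4 and shERK5-5, 6 to 8 between the lines, and 0 to 0 for both hairpins alike. Over 20 values of single HOX genes and their alternatives, 519 of 551 kept direction and side of the threshold, 28 no longer passed, 2 newly passed and 2 turned. For 42 regulator values, 1133 of 1174 kept both and 41 no longer passed. The cause of these changes was not tested. Many of the fits in these totals could not move an estimate. Leaving out an array outside the groups compared does not, nor does averaging probes for a HOX gene with 1 probe. The totals are thus no measure of robustness. HOXC11 gave no value where dim probes were left out.

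With the replicate block the counts were 2, 0, 1 and 0 for the 4 hairpin comparisons, 1 and 2 between the hairpins and 8 between the lines, as without it. Correlations of replicate numbers are of what is left of each probe after its group mean is taken off, not of the signals themselves. Pairing by replicate number was not taken as shown, since not every same-numbered pair of arrays correlated over 0.1. The r was -0.13 to 0.20 in SK-N-BE(2) and -0.06 to 0.20 in CHLA-90, over 0.1 in 3 and 4 of 9 pairs. The pairs of replicate 3 were over 0.1 in 3 of 3 cases in each line. An array correlated best with its own number in 10 of 18 cases in each line. The low signals of 10 dim HOX probes and 3 arrays per group limit which changes could be seen.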
